A study of Homo sapiens with 12 samples.

Results

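SULT1C2, SULT1C4, SULT1A1 and SULT2B1 are genes of the cytosolic sulfotransferase (SULT) family, here followed through 4 culture conditions of an ovarian cancer line. They were taken by gene symbol, 4 of the 58735 genes in the count table, and were chosen by their expression in these data, since an earlier look had singled out SULT1C2 for its fold change between the conditions at 20% O2. Of the 4 genes, 1 (SULT1C2) had enough counts to enter the tests, which covered 16891 genes, and SULT1C4, SULT1A1 and SULT2B1 were too low to read. Cytosolic sulfotransferases move a sulfonate group from the donor PAPS onto small molecules such as phenols, steroids, catecholamines and thyroid hormones, which makes them more water soluble and often inactive. PAPS is built from sulfate and ATP by PAPSS1 and PAPSS2, and sulfatases reverse the reaction. SULT1C enzymes act mainly on small phenols, SULT1A1 is the broad phenol sulfotransferase of liver and many other tissues, and SULT2B1 acts on cholesterol and other hydroxysteroids.

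The libraries were made from ES2, an ovarian carcinoma line of human origin, in its inducible-knockout form FDX2-iKO. These cells were first given an HA-tagged, editing-resistant FDX2 under the doxycycline (Doxy)-dependent TetON promoter and then lost their endogenous FDX2 to genome editing. Endogenous FDX2 is thus absent from all 4 conditions, and removing Doxy takes away the transgenic FDX2 as well. FDX2 is the mitochondrial ferredoxin of iron-sulfur cluster synthesis. Cells were kept 6 days at 20% O2 with Doxy (20% + Doxy) or without it (20% wo Doxy), or 4 days at 20% O2 followed by 3 days at 3% O2 with Doxy (3% + Doxy) or without it (3% wo Doxy), with 3 libraries each and 12 in all. Loss of FDX2 and absence of the drug cannot be told apart in this design, nor can oxygen and the longer culture of the 3% O2 cells.

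Library totals lay between 24958386 and 34313637 counts (median 29621780). FDX2 itself had 2 to 13 counts per library and did not pass the count filter. Its summed counts were not lower without Doxy, with 13 at 20% + Doxy, 26 at 20% wo Doxy, 18 at 3% + Doxy and 19 at 3% wo Doxy. Of its exonic bases 70.9% belong to other annotated genes too, so its counts do not check the labels. The terms FDX2-proficient, FDX2-deficient and FDX2 loss below follow the Doxy labels. Of 7 markers of ovarian clear cell carcinoma, PAX8, KRT8 and KRT18 were read in every library (5.59 to 19.3 CPM for PAX8), whereas NAPSA, EPCAM, CDH1 and MUC16 were at 0 to 9 counts. The summed level of these 7 markers was 553 to 742 CPM at 20% + Doxy, 430 to 456 CPM at 20% wo Doxy, 577 to 706 CPM at 3% + Doxy and 600.5 to 657 CPM at 3% wo Doxy. KRT18 alone, at 376 to 669 CPM over the 12 libraries, made up most of this sum. The mesenchymal markers VIM and FN1 were abundant, with a summed level of 3447 to 3967, 2910 to 3028, 3932 to 4978 and 3576 to 4137 CPM in the same order of conditions. Both sums were lowest at 20% wo Doxy, where no library overlapped another condition, and their part in the results was not tested. Of the markers of hepatocytes and enterocytes, cells in which several SULT genes are abundant, ALB had 1 to 6 counts, APOA1 at most 1 and CDX2 0, and VIL1 had 1 to 64. PTPRC and CD3E of leukocytes and PECAM1 and VWF of endothelium had at most 6 counts, whereas LYZ (27 to 70) and CDH5 (656 to 1412) were read throughout.

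SULT1C2 lies in a row of related genes on chromosome 2, where SULT1C3, the pseudogenes SULT1C2P2 and SULT1C2P1, and SULT1C4 are its near neighbours. The stretch that follows is exon 4, a coding exon, of SULT1C2 (chr2:108300838-108300935, plus strand, GRCh38, GENCODE 29) with the exon of equal length in its relatives. It is shown because reads of 1 family member could be counted for another only where their sequences coincide, and capitals mark the bases that differ from SULT1C2.
SULT1C2: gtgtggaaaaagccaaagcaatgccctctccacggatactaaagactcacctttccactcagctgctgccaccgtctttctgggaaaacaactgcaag
SULT1C4: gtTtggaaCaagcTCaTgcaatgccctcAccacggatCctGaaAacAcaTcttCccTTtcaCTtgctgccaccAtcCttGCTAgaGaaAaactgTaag
SULT1C2P1: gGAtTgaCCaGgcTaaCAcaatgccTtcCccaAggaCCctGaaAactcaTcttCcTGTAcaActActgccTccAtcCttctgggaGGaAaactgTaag
SULT1C3: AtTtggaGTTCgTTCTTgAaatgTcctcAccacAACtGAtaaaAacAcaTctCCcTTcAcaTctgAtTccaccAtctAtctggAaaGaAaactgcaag
SULT1B1: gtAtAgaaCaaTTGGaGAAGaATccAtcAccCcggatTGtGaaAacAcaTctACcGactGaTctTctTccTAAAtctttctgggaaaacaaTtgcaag
SULT1A1: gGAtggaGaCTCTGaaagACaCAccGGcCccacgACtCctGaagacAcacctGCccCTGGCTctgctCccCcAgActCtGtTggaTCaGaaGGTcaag

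Over these 98 bases SULT1C4 was closest to SULT1C2, with 73 identical bases (74.5%), followed by SULT1C2P1 (68.4%), SULT1B1 (65.3%), SULT1C3 (64.3%) and SULT1A1 (58.2%). SULT2B1 had no exon of this length. Along all its annotated transcripts SULT1C2 held 9014 different windows of 100 bases, and 0 of them occurred in a transcript of another gene. None of its 8399 exonic bases (chr2:108288639-108309915) overlapped another gene. By the same count 80.4% of the windows of SULT1A3 and 95.3% of those of SULT1A4 were shared, so counts of these near-identical genes are uncertain.

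SULT1C2 was lowest in FDX2-proficient cells at 20% O2 and highest in FDX2-deficient cells at 20% O2. At 20% + Doxy the 3 libraries held 100, 73 and 95 counts, or 3.19, 2.64 and 2.79 CPM (counts per 1000000 after TMM scaling; mean 2.88 ± 0.285, SD, n = 3). At 20% wo Doxy they held 581, 674 and 660 counts, or 18.6, 21.3 and 21.4 CPM (20.5 ± 1.58, SD, n = 3). Every library without Doxy was thus above every library with Doxy at this oxygen level, by a ratio of mean CPM of 7.11. At 3% + Doxy the counts were 193, 150 and 181, or 6.25, 5.73 and 5.85 CPM (5.94 ± 0.272, SD, n = 3). At 3% wo Doxy they were 304, 290 and 370, or 12.2, 11.5 and 11.5 CPM (11.8 ± 0.413, SD, n = 3). Both conditions at 3% O2 fell between those at 20% O2, and no replicate of 1 condition reached into the range of another. The order 20% + Doxy, 3% + Doxy, 3% wo Doxy, 20% wo Doxy, with no overlap of replicates between neighbours, was seen in 92 of 16891 genes (0.545%). The same order of condition means regardless of overlap was seen in 1593 (9.43%). This order was read from SULT1C2 itself, a gene chosen for its difference at 20% O2. Both shares are therefore descriptions and test nothing.

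**Figure D1:**
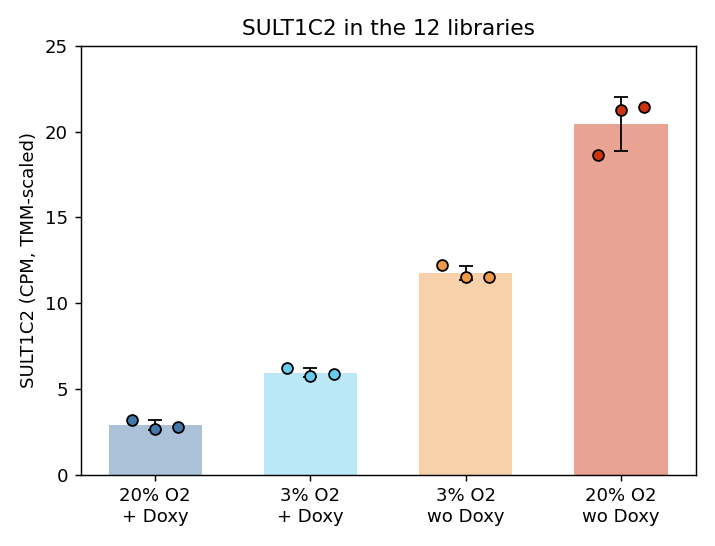
SULT1C2 in CPM (counts per 1000000, TMM-scaled) by condition, ordered by level; points are the 3 libraries of each condition, bars their mean and error bars the SD. The means climb from 2.88 CPM at 20% O2 with Doxy to 20.5 CPM at 20% O2 without Doxy, with the 3% O2 conditions at 5.94 and 11.8 CPM in between.

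The fitted log2 change of SULT1C2 on FDX2 loss at 20% O2 was 2.83 (SE 0.0929), the 70th largest increase of the 16891 genes tested. It is given as a description with no test, since this contrast is the one that brought the gene to attention, and 35.3% of all genes tested were called in it at an adjusted p under 0.05. Earlier results of these data were known when the 4 genes were chosen, so a test at 3% O2 may not be independent of that choice either. FDX2 loss at 3% O2 compares 6 libraries outside the contrast that singled out SULT1C2, although the spread in its test was estimated from all 12. There SULT1C2 rose by 0.98 on the log2 scale (SE 0.0876), a ratio of mean CPM of 1.98, with an adjusted p of 0.00019 by edgeR's quasi-likelihood test over all genes. Fitted to those 6 libraries alone, the log2 change was 0.96 (SE 0.0892) with an adjusted p of 0.0195. Of the 4 sulfotransferases, 1 was thus called at 3% O2, where 7.31% of all genes tested were called (4.2% higher, 3.11% lower), and the other 3 could not be tested. All 3 libraries without Doxy were above all 3 with Doxy, which held for 24.6% of all genes in this comparison.

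The remaining contrasts share libraries with the one that singled out SULT1C2 and are likewise given without a test. Shifting cells from 20% to 3% O2 with Doxy went with a log2 change of 1.04 (SE 0.0932), from 2.88 to 5.94 CPM. Without Doxy the same shift went the other way, with a log2 change of −0.80 (SE 0.0843), from 20.5 to 11.8 CPM. For comparison, 2.02% of genes were called between the oxygen levels with Doxy (1.63% higher, 0.385% lower) and 25.8% without Doxy (13.9% higher, 11.9% lower). The replicates of SULT1C2 did not overlap in either comparison, as for 15.4% of all genes with Doxy and 49.4% without it. The response to FDX2 loss at 3% O2 was smaller than that at 20% O2 by 1.84 on the log2 scale (difference −1.84, SE 0.126), in a comparison where 7.29% of genes were called. At 3% O2 without FDX2, SULT1C2 stood at 4.09 times its level in FDX2-proficient cells at 20% O2, and at 20% O2 without FDX2 it stood at 3.44 times its level in FDX2-proficient cells at 3% O2.

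SULT1C4, the neighbour that is most like SULT1C2 in sequence, had 1 count in the 12 libraries together, in replicate 3 at 20% wo Doxy. SULT2B1 also had 1 count, in replicate 2 at 20% + Doxy. SULT1A1 had 3, 1 and 0 counts at 20% + Doxy, 0, 2 and 0 at 20% wo Doxy, 0 in each library at 3% + Doxy, and 2, 0 and 2 at 3% wo Doxy. None of these libraries exceeded 3 counts, the limit that a count of 0 allows, which corresponds to 0.0881 to 0.121 CPM depending on the library and covers counting error only. No fold change is given for these 3 genes, and a difference between conditions was not detectable at this depth.

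The rest of the family had few counts as well. Of its 13 genes, 10 had at most 3 counts in any library, and SULT1A4, SULT1E1 (estrogen sulfotransferase), SULT2A1 (the hydroxysteroid sulfotransferase of liver and adrenal) and SULT4A1 (a brain-enriched member) were at 0 in all 12. Together with SULT1C2, SULT1B1 and SULT1A3 passed the filter. SULT1B1, an intestinal and hepatic sulfotransferase of thyroid hormones, had 14, 12 and 18 counts at 20% + Doxy, 24, 21 and 27 at 20% wo Doxy, 18, 14 and 6 at 3% + Doxy, and 21, 11 and 16 at 3% wo Doxy. Its libraries at 20% O2 did not overlap between Doxy conditions, as for 52.3% of all genes, and its log2 difference there was 0.70 (SE 0.375, adjusted p = 0.173, edgeR). In the other 4 comparisons its adjusted p was 0.471 to 0.959. SULT1A3, the catecholamine sulfotransferase, had 3 to 14 counts per library and was called in none of the 5 comparisons. Its log2 difference of responses was −1.28 (SE 0.540, adjusted p = 0.181, edgeR), and reads from SULT1A4 and from the read-through gene SLX1A-SULT1A3 could be among its counts. Reads of SULT1A3 and SULT1A4 could also have been lost where their sequences coincide, so the level of SULT1A3 and the 0 of SULT1A4 are uncertain. The read-through gene SLX1B-SULT1A4 had 0 to 5 counts per library and 25 over the 12 libraries. Per kilobase of exon, SULT1C2 had 0.342 CPM at 20% + Doxy and 2.44 CPM at 20% wo Doxy, against 0.0639 and 0.105 CPM for SULT1B1. On this length-scaled level SULT1C2 was above SULT1B1 and SULT1A3 in all 4 conditions.

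**Figure D2:**
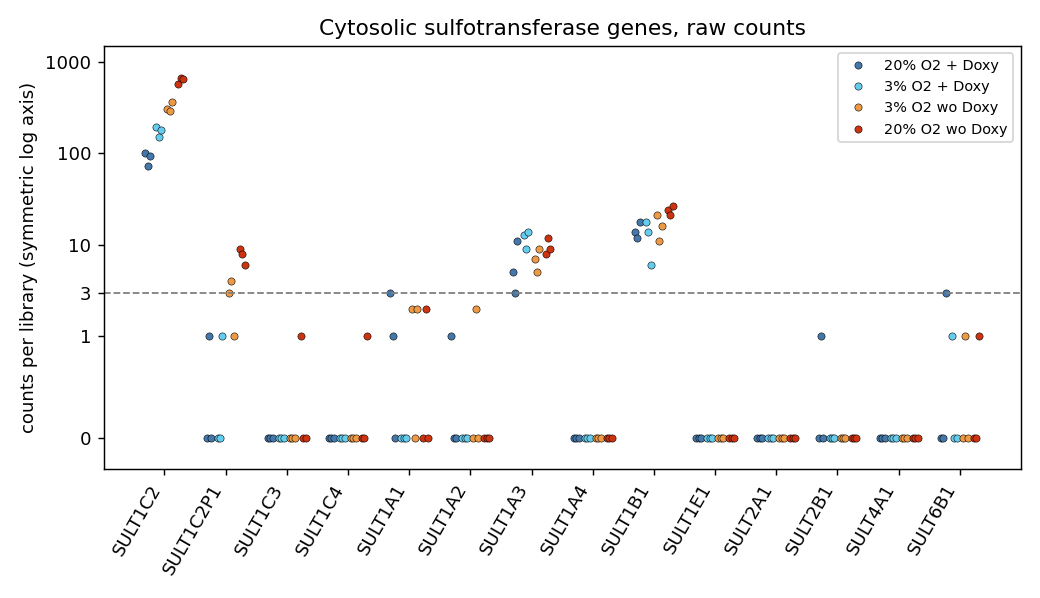
Raw counts per library (symmetric log axis) of the 13 cytosolic sulfotransferase genes and the pseudogene SULT1C2P1; each point is 1 of 12 libraries, coloured by condition, and the dashed line marks 3 counts. SULT1C2 has 73 to 674 counts, SULT1B1 6 to 27 and SULT1A3 3 to 14, and the other 10 family genes have at most 3.

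At the SULT1C2 locus, the transcribed pseudogene SULT1C2P1 (also named SULT1C5P), which starts 33.6 kb downstream of the start of SULT1C2, had few counts that ran in a similar direction. It had 0, 1 and 0 counts at 20% + Doxy, 9, 8 and 6 at 20% wo Doxy, 0, 0 and 1 at 3% + Doxy, and 3, 4 and 1 at 3% wo Doxy. It did not pass the filter and was not tested, and 0 of its 1905 windows of 100 bases occurred in another gene's transcripts. SULT1C3, 41.4 kb upstream, had at most 1 count, and on the same side SLC5A7, the choline transporter, had 0 and RGPD4 at most 5. On the other side GCC2, a golgin of the trans-Golgi, was 46.5 ± 2.56 CPM at 20% + Doxy and 56.8 ± 3.99 CPM at 20% wo Doxy (SD, n = 3), a called log2 rise of 0.29 (SE 0.0751, adjusted p = 0.0121, edgeR). GCC2 fell by 0.33 on the log2 scale between the oxygen levels without Doxy (adjusted p = 0.0096). LIMS1, a focal adhesion adaptor, was not called on FDX2 loss at 20% O2 (log2 difference 0.16, adjusted p = 0.161, edgeR). It fell by 0.35 between the oxygen levels without Doxy (adjusted p = 0.0117, edgeR). The nuclear pore gene RANBP2 fell by 0.21 on FDX2 loss at 20% O2 (adjusted p = 0.0269, edgeR). Between the oxygen levels without Doxy RANBP2 was not called (log2 change 0.03, adjusted p = 0.789, edgeR).

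The 10 genes whose pattern over the 12 libraries was most like that of SULT1C2 (Pearson r of log2(CPM + 0.5), genes with at least a 2-fold range of condition means) had r from 0.977 to 0.991. They were AIM2, a cytosolic DNA sensor of the inflammasome, TPP1, a lysosomal peptidase, CLIC2, a chloride channel-like protein, IL7R, a cytokine receptor, the noncoding RNA LINC01410, IFIT3, an interferon-induced gene, GPNMB, a lysosomal and melanosomal glycoprotein, TRPC6, a cation channel, PPARGC1A, a coactivator of mitochondrial genes, and DUSP10, a phosphatase of stress kinases. AIM2 was 2.37 ± 0.267 CPM at 20% + Doxy, 3.70 ± 0.221 CPM at 3% + Doxy, 5.90 ± 0.208 CPM at 3% wo Doxy and 7.38 ± 0.233 CPM at 20% wo Doxy (SD, n = 3). GPNMB went from 8.15 ± 1.00 CPM at 20% + Doxy to 43.1 ± 0.736 CPM at 20% wo Doxy, with 11.4 and 25.04 CPM in the conditions at 3% O2. TPP1, the most abundant of the 10, went from 104 ± 4.16 to 217 ± 8.11 CPM over the same conditions. These are correlations over 12 libraries that share 4 conditions, so any gene with this order of levels scores high, and 179 of the 1957 genes compared had r above 0.9. The correlation with SULT1C2 was 0.91 for VDR, 0.73 for CTH, 0.60 for SULT1B1, 0.27 for SULT1A3, −0.38 for PAPSS1 and −0.39 for PAPSS2.

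**Figure D3:**
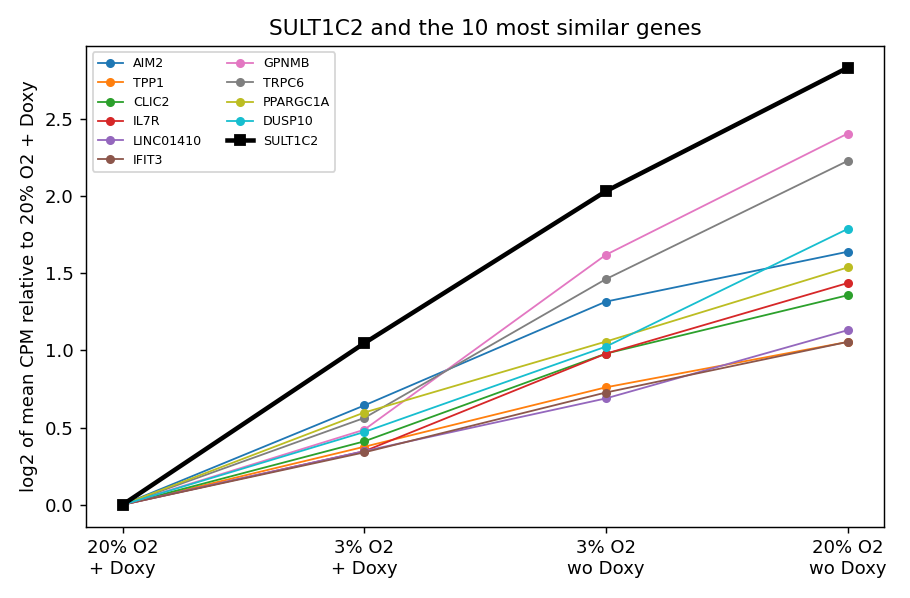
Condition means of SULT1C2 (black squares) and of the 10 genes with the most similar pattern (coloured circles), as log2 of mean CPM relative to 20% O2 with Doxy. All 11 lines climb in the same order of conditions, by which the 10 genes were chosen, and the black line is the highest in each of the 3 conditions compared with 20% O2 with Doxy.

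The genes around sulfation were followed through lists covering the other SULT genes, the PAPS cycle, sulfate supply, Golgi sulfotransferases, sulfatases, other conjugation reactions, the receptors that control conjugation genes and the enzymes of hormones that SULTs act on. These lists were chosen with earlier results of these data known. Of 181 such genes 94 could be tested, 86 had too few counts and 1 was not used here. On FDX2 loss at 20% O2, 41 of the 94 were called (43.6%), 29 higher and 12 lower, with a median log2 difference of 0.13, beside 35.3% called (17.6% higher, 17.7% lower) and a median of 0.01 over all genes tested. When libraries were scaled by their totals alone, the split was 34 higher and 3 lower, and the median over all genes tested moved from 0.01 to 0.13. Of all genes 5967 of 16891 were called under this scaling. Their split by direction was not counted in any comparison, so splits under this scaling have no share of all genes beside them. Splits of single lists under this scaling, given below, share that shift of all genes. At 3% O2, 8 of 94 were called (8.51%), 5 higher and 3 lower, beside 7.31% of all genes. Of these 8, only the conjugation gene GSTO2 was called when all genes with a count were tested, when replicate number was a factor, or when the 6 libraries were fitted alone. Of all genes, 678 of 32966, 676 of 16891 and 218 of 16012 were called in these settings.

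The enzymes that make PAPS did not pass the test in any comparison, by edgeR or by DESeq2's Wald test. PAPSS1 was 56.4 CPM at 20% + Doxy and 51.1 CPM at 20% wo Doxy (log2 difference −0.14, SE 0.0716, adjusted p = 0.150, edgeR), and 51.3 and 55.1 CPM at 3% O2. PAPSS2 was 41.4 and 39.6 CPM at 20% O2 (−0.06, SE 0.0555, adjusted p = 0.417) and 45.7 and 41.9 CPM at 3% O2. Of the 6 genes of the PAPS cycle, 3 were called lower on FDX2 loss at 20% O2, beside 17.7% of all genes. These were SLC35B2, the carrier of PAPS into the Golgi (−0.22, adjusted p = 0.0394), and BPNT1 (−0.16, adjusted p = 0.0345) and BPNT2 (−0.22, adjusted p = 0.0463), the phosphatases that break down the spent donor. The call was lost on leaving out 1 library in 4 of 6 cases for SLC35B2 and in 5 of 6 for BPNT1 and BPNT2. All 3 calls were also lost with replicate number as a factor (adjusted p = 0.0644 to 0.0844) and with scaling by library totals alone, where the log2 differences were −0.10 for BPNT2, −0.09 for SLC35B2 and −0.04 for BPNT1 (adjusted p = 0.259 to 0.684, edgeR). None of the 6 was called at 3% O2 by edgeR, where 3 had an unadjusted p under 0.05, and DESeq2's Wald test called 1 of them, BPNT1.

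Among 14 tested genes of sulfate supply, 4 rose and 2 fell on FDX2 loss at 20% O2, which is 42.9% called beside 35.3% of all genes. CTH, the transsulfuration enzyme that makes cysteine, was 6.78 ± 0.314 CPM with Doxy and 21.3 ± 0.441 CPM without it (SD, n = 3), and its log2 rise was 1.65 (SE 0.0810, adjusted p = 2.83e-07). The aminotransferase genes, whose enzymes also act on the cysteine breakdown product cysteine sulfinate, moved apart, with GOT1 higher by 0.33 and GOT2 lower by 0.45 on the log2 scale (adjusted p = 0.000384 and 0.000127, edgeR). Another gene overlaps 19.3% of the exonic bases of GOT1. At 3% O2 CTH was 6.29 ± 0.526 CPM with Doxy and 6.70 ± 0.461 CPM without it. SLC26A2, the sulfate carrier of the plasma membrane, was the gene called at 3% O2, lower by 0.28 (adjusted p = 0.0353).

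Of 16 Golgi sulfotransferases, which sulfate glycans and proteins, 3 rose and 3 fell at 20% O2 (37.5% called, beside 35.3% of all genes), and 3 and 1 with scaling by library totals alone. CHST14, the dermatan sulfotransferase, fell by 0.76 on the log2 scale (25.7 ± 3.38 to 15.2 ± 0.973 CPM, SD, n = 3, adjusted p = 0.000372), and UST, the uronyl sulfotransferase, rose by 0.52 (adjusted p = 0.000395). UST was also called at 3% O2 (0.35, adjusted p = 0.0226). Sulfatases, which remove sulfate, had 6 higher and 0 lower of 13 at 20% O2, beside 17.6% of all genes called higher. ARSG, a lysosomal arylsulfatase, rose by 1.15 (adjusted p = 0.003) at 20% O2 and by 0.87 (adjusted p = 0.0479) at 3% O2, and 19.6% of its exonic bases overlap other genes. IDS, the lysosomal iduronate sulfatase, rose by 0.64 at 20% O2 (79.1 ± 2.87 to 123 ± 5.58 CPM, SD, n = 3, adjusted p = 3.37e-05). Other genes overlap 17.4% of the exonic bases of IDS. STS, the steroid sulfatase, was the single listed gene called between oxygen levels with Doxy (1 of 94, 1.06%, beside 2.02% of all genes), from 23.5 ± 1.02 to 33.2 ± 0.973 CPM (log2 change 0.50, adjusted p = 0.000284), and it also rose without Doxy (0.41, adjusted p = 0.000271).

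Other conjugation enzymes had 7 higher and 1 lower of 18 on FDX2 loss at 20% O2 (44.4% called, beside 35.3% of all genes), and 9 higher and 1 lower with scaling by library totals alone. GSTO2, an omega-class glutathione transferase, rose by 1.11 (SE 0.0968, adjusted p = 9.44e-06) at 20% O2 and by 0.76 (SE 0.0967, adjusted p = 0.00119) at 3% O2. NAT2, an arylamine N-acetyltransferase, rose by 1.09 at 20% O2 (2.11 ± 0.260 to 4.49 ± 0.253 CPM, SD, n = 3, adjusted p = 0.000557). In the glucuronidation list 3 of 24 genes could be tested, and UGDH, which makes the glucuronic acid donor, rose by 0.35 (adjusted p = 0.00165) while UGT8, a galactosyltransferase of lipids, fell by 0.34 (adjusted p = 0.00367), a call that was lost with scaling by library totals alone. Of 14 receptors and partners, 6 rose and 0 fell at 20% O2 (42.9% called), beside 17.6% of all genes called higher and 17.7% lower. VDR, the vitamin D receptor, rose by 1.01 (11.3 ± 1.85 to 22.8 ± 0.918 CPM, SD, n = 3, adjusted p = 2.97e-05), PPARA by 0.61 (adjusted p = 0.00299) and AHR, the dioxin receptor, by 0.57 (adjusted p = 0.00524), with 32.3% of the exonic bases of AHR shared with other genes. At 3% O2 0 of the 14 were called by edgeR or by DESeq2's Wald test, beside 7.31% of all genes by edgeR, and 4 had an unadjusted p under 0.05 in edgeR. Of 8 genes for hormones that SULTs act on, 2 rose and 2 fell at 20% O2 (50% called, beside 35.3% of all genes), and 3 rose and 0 fell with scaling by library totals alone. The keto-steroid reductases AKR1C1 and AKR1C3 rose at 20% O2, by 1.73 (0.757 to 2.51 CPM, adjusted p = 0.00124) and 0.88 (2.76 to 5.10 CPM, adjusted p = 0.000335), and reads could be split between these closely related genes. SRD5A3 and SRD5A1, 2 genes of the steroid reductase family by name, fell by 0.40 (adjusted p = 0.0171) and 0.18 (adjusted p = 0.043, edgeR). Leaving out 1 library lost the call in 2 of 6 fits for SRD5A3 and in 6 of 6 for SRD5A1. Both calls were lost with scaling by library totals alone (adjusted p = 0.0652 and 0.573, edgeR). With replicate number as a factor that of SRD5A1 was lost (adjusted p = 0.0627, edgeR).

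Between oxygen levels without Doxy, 24 of 94 genes were called (25.5%, beside 25.8% of all genes), 11 higher and 13 lower at 3% O2. With replicate number as a factor, 15 were called, beside 3203 of 16891 genes. When that factor was fitted to the 6 libraries compared, 32 were called, beside 5081 of 16357 genes. With scaling by library totals alone the split was 5 higher and 23 lower, beside 4669 of 16891 genes called in either direction. The median log2 change over all genes tested then moved from 0.07 to −0.04. CTH fell by 1.67 on the log2 scale (adjusted p = 1.12e-06), MGST1, a microsomal glutathione transferase, by 0.80 (adjusted p = 0.000905) and VDR by 0.63 (adjusted p = 0.00152), and CHST14 rose by 0.76 (adjusted p = 0.00082, edgeR). Between oxygen levels the response to FDX2 loss differed for 8 of 94 (8.51%, beside 7.29% of all genes), 3 positive and 5 negative (3.21% and 4.08% of all genes). With scaling by library totals alone these were 1 and 10, beside 1325 of 16891 genes called in either direction. The median difference over all genes tested then moved from 0.05 to −0.04.

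**Figure D4:**
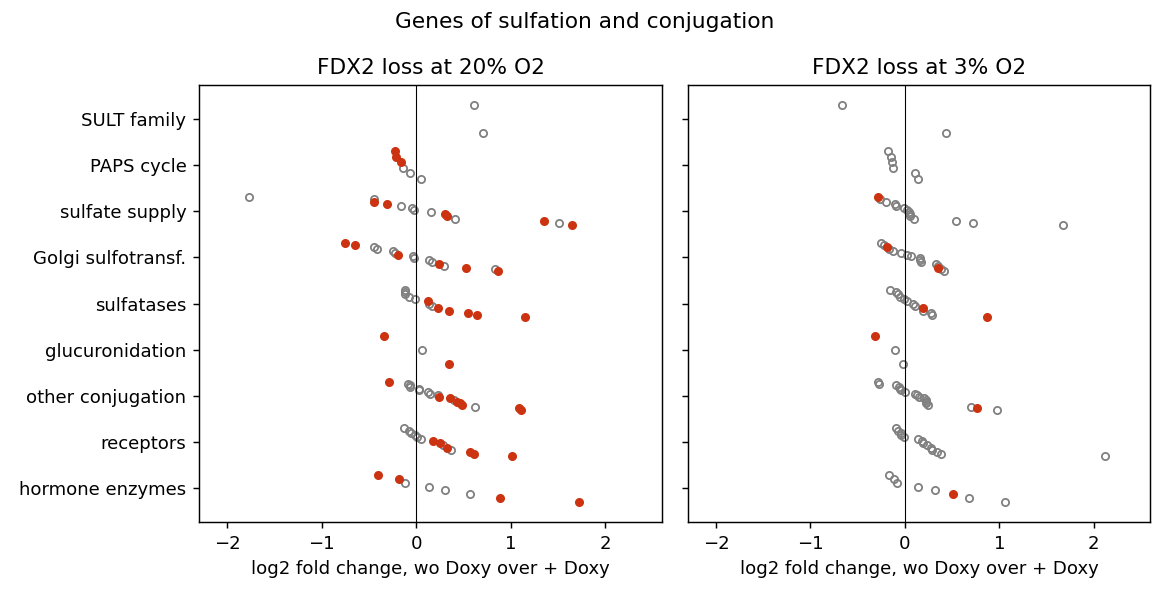
Log2 fold change on FDX2 loss (without over with Doxy) of the 94 tested genes of sulfation and conjugation, by list, at 20% O2 (left) and 3% O2 (right); each circle is 1 gene, filled red where the adjusted p was under 0.05. At 20% O2 41 circles are filled, 29 of them to the right of 0, and at 3% O2 8 are filled.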

How the data were processed

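RNA-seq was done on 12 libraries of FDX2-iKO ES2 cells, 4 conditions of 3 libraries that the submitters describe as biological replicates. Poly(A) RNA was sequenced in paired-end mode, and the authors aligned reads with STAR and assigned them to genes with featureCounts on GRCh38. The deposited values are raw counts per gene, neither normalized nor pooled. Versions of STAR and featureCounts, the strand setting and the handling of multi-mapping reads are not given in the sources used here. Counts of overlapping or near-identical genes are therefore uncertain. DESeq2 is named by the submitters for normalization.

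Gene identifiers (58735, all in GENCODE 29) were matched to symbols and 58207 had a current one. edgeR 4.0.16 (under R 4.3.3) was used for the counts. Of 32966 genes above 0, filterByExpr with a minimum count of 10 and a minimum total of 15 kept 16891. All 12 libraries entered 1 quasi-likelihood fit with TMM scaling and a mean per condition, which left 8 residual degrees of freedom and gave a common biological coefficient of variation of 16.3%. This fit shares the spread of a gene over conditions, although replicates did not scatter equally. The median chi-square per degree of freedom between replicates was 4.54 at 20% + Doxy, 1.32 at 20% wo Doxy, 3.98 at 3% + Doxy and 3.3 at 3% wo Doxy. Calls required a Benjamini-Hochberg adjusted p under 0.05 over all genes tested. CPM are counts per 1000000 of the TMM-scaled total, and the length scale is kilobases of annotated exon. SE was taken as the log2 fold change divided by the root of the test's F. Precision is limited by the totals given with the results, and 3 counts were taken as the limit that a count of 0 allows. The fit was tested on simulated counts, in which a gene had the same spread in all conditions. The unequal scatter of replicates given above was therefore not covered by the simulation.

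The 4 genes and all gene lists were chosen with earlier results of these data known. Named genes were the SULT genes, PAPSS1 and PAPSS2, up to 4 called genes per list and comparison with the largest change (mean level 1 CPM or more, replicates not overlapping), the 10 genes most like SULT1C2, and protein-coding neighbours of SULT1C2. SULT1C2P1 was added to these for its place in the locus. Of the cell type markers fixed at the start, 2 are not reported here. The identical windows of 100 bases were counted in GENCODE 29 transcripts, from which exon sequences were also read.

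Whether a replicate number marks a pair was checked by the correlation, over genes, of libraries' deviations from their condition means. Between the conditions without Doxy, same-numbered libraries had r of 0.245 to 0.54 and the other pairs −0.54 to 0.218, so the replicate factor is given beside that comparison, while elsewhere at least 1 of the 3 same-numbered pairs was at or under 0.1. Alternatives were other scalings and filters, DESeq2 1.42.0 (Wald test), a replicate factor, a fit to the compared conditions, and leaving out each library.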

Additional observations from a re-analysis of the deposited data

Results flagged for a closer look

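For 8 genes around sulfation the response to FDX2 loss differed between 3% and 20% O2 by edgeR's test of the difference itself (3% minus 20%, log2 scale, adjusted p under 0.05, n = 3 libraries per condition). That is 8.51% of the 94 tested, beside 7.29% of all genes. The difference was −1.56 for CTH (adjusted p = 6.9e-05), which rose from 6.78 to 21.3 CPM at 20% O2 and was 6.29 and 6.70 CPM at 3% O2. It was −0.73 for VDR (adjusted p = 0.0137) and −0.43 for GOT1 (adjusted p = 0.00433). Smaller margins to the threshold were seen for IDS (−0.44, adjusted p = 0.0181), UGDH (−0.37, adjusted p = 0.0339), GOT2 (0.36, adjusted p = 0.023), ARSJ (0.31, adjusted p = 0.0186) and CHST14 (0.58, adjusted p = 0.0461). Among the 12 fits that left out 1 library, the call was lost in 10 for CHST14, 9 for UGDH, 7 for GOT2, 7 for ARSJ and 5 for IDS. CTH, VDR and GOT1 were called in each of the 12 fits that left out 1 library and with replicate number as a factor. SULT1C2 had a difference of −1.84, which is given without a test because its response at 20% O2 led to its choice.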

How the results depend on the processing

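SULT1C2 kept its direction in every comparison under every alternative, and its call at 3% O2 was kept in each. Leaving out 1 library at a time, its log2 change was 2.77 to 2.90 for FDX2 loss at 20% O2, 0.95 to 1.02 at 3% O2, 0.99 to 1.12 for low oxygen with Doxy, −0.88 to −0.77 without Doxy and −1.93 to −1.79 for the difference of responses. Scaling by library totals alone moved it by more than the spread between replicates, to 2.95 for FDX2 loss at 20% O2, −0.90 for low oxygen without Doxy and −1.94 for the difference, and the median of all genes at 20% O2 was then 0.13. SULT1C4, SULT1A1 and SULT2B1 gave no value under any alternative, because their counts never exceeded the limit.

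Counts of called sulfation genes depended more on the fit, and counts over all genes moved as well. At 3% O2 the main fit called 1235 of 16891 genes. With replicate number as a factor it was 676, and with the compared conditions only 218 of 16012. For low oxygen without Doxy 4361 of all genes were called in the main fit and 3203 with the replicate factor. For the difference of responses these were 1231 and 615. With 1 library left out, calls over all genes ran from 4423 to 5575 for FDX2 loss at 20% O2. At 3% O2 they ran from 582 to 1605. The ranges were 190 to 388 for low oxygen with Doxy, 2321 to 4200 without Doxy and 520 to 2191 for the difference. DESeq2's Wald test called 629 of all genes for low oxygen with Doxy and 1916 for the difference. Without the count filter 678 of 32966 genes were called at 3% O2 and 672 for the difference. For FDX2 loss at 20% O2 (41 called) the counts of sulfation genes ran from 26 to 37 with 1 library left out, the lowest without 20% wo Doxy replicate 2. At 3% O2 (8 called) they ran from 1 to 10, the 10 without 3% + Doxy replicate 3 and 1 to 3 without any 1 of the other 5 libraries compared, and were 1 without the count filter, with replicate number as a factor and with the compared conditions only. For low oxygen with Doxy (1 called) the count was 2 with DESeq2 size factors or library totals, 4 with DESeq2's Wald test and 1 to 2 with 1 library left out, the 2 without 20% + Doxy replicate 1. For low oxygen without Doxy (24 called) it was 15 with the replicate factor, and 11 to 21 with 1 library left out, with 13, 14 and 11 without 20% wo Doxy replicates 1, 2 and 3 and 12 without 3% wo Doxy replicate 2. The fit of that factor to the 6 libraries alone was chosen after seeing the data. For the difference of responses (8 called) it was 5 without the filter, 14 with the Wald test, 3 with the replicate factor and 3 to 12 with 1 library left out, at 5 or fewer without 20% + Doxy replicate 2, any library of 20% wo Doxy, 3% + Doxy replicate 1 or 2, or 3% wo Doxy replicate 2. Ranking by Spearman's rho kept 3 of the 10 genes most like SULT1C2. The replicate factor changed no call of SULT1C2. No named gene changed direction. The cause of these shifts was not tested. Depth limits every family member other than SULT1C2, and shared sequence also limits SULT1A3 and SULT1A4.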
